A study of Caenorhabditis elegans with 2 samples.

Results

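The genes described here act in protein quality control and were chosen by name: hsp-1 and hsp-110 of the cytosol, hsp-3 and hsp-4 of the endoplasmic reticulum, hsp-6 and hsp-60 of the mitochondria, and hsf-1, which encodes the heat shock transcription factor. They are 7 of the 19973 protein-coding nuclear genes of Caenorhabditis elegans, and 4 of them encode chaperones of the HSP70 family. The rule lists them by name, and the names were chosen with earlier results of these data known. The question asked of them was where the nuclear hormone receptor NHR-43 had listed binding summits near them in third-stage larvae, and whether cytosolic, endoplasmic reticulum and mitochondrial chaperone genes differed.

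Chromatin immunoprecipitation followed by sequencing (ChIP-seq) recovers the DNA bound by a tagged protein, and stretches with an excess of reads are listed as peaks, each with a summit where the excess is highest. Both samples are biological replicates of 1 group of hermaphrodite L3 larvae of strain OP477, grown for 36.5 h after synchronisation from starved L1 larvae that had been obtained by bleaching. The strain has the genotype unc-119(tm4063) III and carries wgIs477, an integrated transgene that makes NHR-43 with GFP and FLAG at its C terminus, so both replicates share the mutation and the transgene. The immunoprecipitation used anti-GFP on sonicated chromatin of whole animals, which mixes all tissues, and the binding reported is that of the tagged transgene product in this 1 strain. Control libraries were not analysed here, and there is no comparison between conditions.

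HSP70 proteins bind unfolded stretches of other proteins and release them in cycles driven by ATP, and HSP110 is a relative that acts as their nucleotide exchange factor. HSP60 forms a chamber in the mitochondrial matrix in which proteins fold under a lid of the 10 kDa co-chaperonin. In C. elegans each compartment has its own stress response: HSF-1 binds heat shock elements, arrays of short inverted units, at cytosolic chaperone genes, the unfolded protein response of the endoplasmic reticulum raises hsp-4, and that of the mitochondria raises hsp-6 and hsp-60.

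The sequence under the strongest promoter summit of each of the 6 chaperone genes is shown because these are the stretches on which the binding results rest, and because they differ in the motifs they hold. A promoter window covered the 1000 bp before a gene's annotated 5′ end and the first 200 bp after it, and the strongest summit is the one with the highest signal in that window in the list made from pooled reads. Each sequence runs 5′ to 3′ on the strand of the gene, 75 bases to each side of the summit, and was read from the RefSeq WBcel235 genome. That of hsp-3 stops at the annotated 5′ end and has 122 bases, the others have 151. Capitals mark matches, on either strand, to the 8 motifs searched: GAANNTTC and TTCNNGAA (2 units of a heat shock element), TGACGTG (an element of the unfolded protein response), CCAAT (the site of the NF-Y factor), GAGAGA (a repeat of GA), CTGCGTCTC (no factor named), AGGTCA (a nuclear receptor site) and CAAAGTCCA (a longer nuclear receptor site).
hsp-60, III:1619071-1619221, plus strand: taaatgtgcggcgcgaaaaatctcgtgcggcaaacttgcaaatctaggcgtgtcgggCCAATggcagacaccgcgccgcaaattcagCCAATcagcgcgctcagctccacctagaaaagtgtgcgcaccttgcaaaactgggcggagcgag
hsp-110, III:8447082-8447232, minus strand: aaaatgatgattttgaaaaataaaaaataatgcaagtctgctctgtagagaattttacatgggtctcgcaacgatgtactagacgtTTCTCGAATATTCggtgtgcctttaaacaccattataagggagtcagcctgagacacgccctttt
hsp-3, X:6092125-6092246, minus strand: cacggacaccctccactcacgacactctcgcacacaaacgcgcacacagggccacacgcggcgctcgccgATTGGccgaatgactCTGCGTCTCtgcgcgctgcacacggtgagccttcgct
hsp-1, IV:17278522-17278672, plus strand: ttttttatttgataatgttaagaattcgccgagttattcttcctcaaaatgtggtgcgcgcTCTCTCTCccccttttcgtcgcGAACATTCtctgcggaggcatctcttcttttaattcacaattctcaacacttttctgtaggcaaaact
hsp-6, V:4827071-4827221, minus strand: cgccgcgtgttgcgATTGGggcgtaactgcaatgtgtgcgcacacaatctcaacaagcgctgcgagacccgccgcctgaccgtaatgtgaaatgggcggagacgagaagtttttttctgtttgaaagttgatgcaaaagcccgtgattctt
hsp-4, II:7352675-7352825, minus strand: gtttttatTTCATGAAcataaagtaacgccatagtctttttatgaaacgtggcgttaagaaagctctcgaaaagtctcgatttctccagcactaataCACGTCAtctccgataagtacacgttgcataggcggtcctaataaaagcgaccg

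Thresholded summits lay in the promoter windows of 4 of the 7 genes, hsp-60, hsp-110, hsp-3 and hsp-1, where 10.1% of all protein-coding genes had one. The thresholded list holds the 3889 peaks that the authors kept, of which 3870 are nuclear. Its lowest signal was 61.4 on the authors' scale, and the nuclear peaks had a median of 110 and a highest signal of 2066. In the pooled relaxed list of 30000 peaks, 6 of the 7 genes had a promoter summit, against 34.8% of all genes. The same 6 genes had one in replicate 1, against 36% of all genes, and in replicate 2, against 35.2%, and 22.6% of all genes had one in both replicates. hsf-1 had none in any list. These are counts of genes chosen with earlier results of these data known. They are set beside a genome-wide share, and no test was made of the list.

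By signal in the pooled list the order was hsp-60, hsp-110, hsp-3, hsp-1, hsp-6 and hsp-4. Replicate 2 gave the same order of ranks, and replicate 1 differed from it only in placing hsp-4 above hsp-6. The signal scale belongs to each list, so replicates were compared by rank. With 1 value per replicate and no reads, no spread could be put on a signal, and neighbours in the order were not tested against each other.

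**Figure D1:**
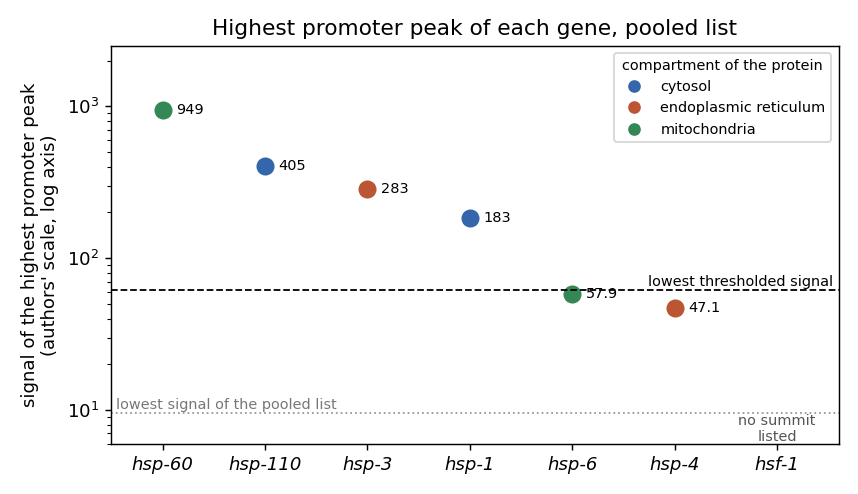
The vertical log axis gives the signal of the highest promoter peak of each gene in the pooled list, on the authors' scale, coloured by the compartment of the protein. The 4 genes at the left lie above the dashed line at the lowest thresholded signal of 61.4, hsp-6 and hsp-4 lie below it at 57.9 and 47.1, and hsf-1 has no value.

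The mitochondrial chaperonin gene hsp-60 (WBGene00002025, III:1619742-1625803, plus strand) had the strongest peak of the set. The peak, III:1619006-1619281, had a signal of 949 and rank 49 of the pooled list, and it ranked 48 in replicate 1 with a signal of 397 and 53 in replicate 2 with a signal of 529. Among the 2010 genes with a thresholded promoter summit, hsp-60 was 15th by its highest signal. Its summit lay between genes, 596 bp upstream of hsp-60 and 217 bp upstream of Y22D7AL.10, which lies in the opposite orientation 812 bp away and which RefSeq annotates as the mitochondrial 10 kDa heat shock protein. The strongest summit of the set therefore stood in the stretch between the genes of the chaperonin chamber and its lid, nearer to the lid gene, and binding here cannot be assigned to 1 of them. The relaxed summits of the replicates lay 5 and 21 bp from the thresholded one.

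The cytosolic HSP110 gene (hsp-110, WBGene00016250, III:8443910-8446909, minus strand) came next. Its peak, III:8447050-8447279, had a signal of 405 and rank 223, with rank 347 in replicate 1 and 221 in replicate 2. The summit lay 248 bp upstream of hsp-110 and 196 bp upstream of rpn-3, a divergent gene 443 bp away that encodes a subunit of the 26S proteasome, the complex that degrades tagged proteins. As at hsp-60, the nearest 5′ end was that of the neighbour, and the replicate summits stood 13 and 7 bp from the thresholded one.

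The endoplasmic reticulum HSP70 gene hsp-3 (WBGene00002007, X:6089028-6092124, minus strand), a BiP homologue, had its strongest summit closest to its own 5′ end, 47 bp upstream. That peak, X:6092081-6092268, had a signal of 283 and rank 443, and it ranked 717 in replicate 1 and 342 in replicate 2. A second thresholded summit lay 578 bp upstream of hsp-3 and 598 bp upstream of the divergent gene C15H9.5, with a signal of 80.4 and rank 2818. Replicate 2 had a summit 2 bp from this weaker one and replicate 1 had its nearest 129 bp away, so the weaker summit was the only thresholded promoter summit of the set without a partner within 100 bp in both replicates.

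The cytosolic HSC70 gene hsp-1 (WBGene00002005, IV:17278959-17281330, plus strand), which encodes a constitutively made HSP70, had a thresholded summit 362 bp upstream that lay in no other gene's window. The peak, IV:17278454-17278673, had a signal of 183 and rank 937. It ranked 2672 in replicate 1 and 704 in replicate 2, and the replicate summits lay 54 and 25 bp away. Its rank thus differed more between replicates than those of hsp-60, hsp-110 and hsp-3, both as a difference and as a ratio.

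Relaxed peaks alone marked the promoters of hsp-6, the mitochondrial HSP70, and hsp-4, the other BiP homologue and a standard reporter of the endoplasmic reticulum unfolded protein response. At hsp-6 (WBGene00002010, V:4824124-4826760, minus strand) the pooled peak V:4826984-4827307 had a signal of 57.9 and rank 4171, just under the 3889 kept, and it ranked 8307 in replicate 1 and 3629 in replicate 2. Its summit lay 386 bp upstream of hsp-6 and 214 bp upstream of the divergent gene C37H5.5, within 2 annotated non-coding RNA genes. A pooled summit inside hsp-6, 1392 bp downstream of its 5′ end, was slightly stronger, with a signal of 58.3 and rank 4127. In replicate 2 a summit 1395 bp downstream was also slightly above the promoter one, with signals of 38.7 and 38.2. In replicate 1 the promoter summit of hsp-6 was stronger than any in its gene body. At hsp-4 (WBGene00002008, II:7350112-7352645, minus strand) the pooled peak II:7352588-7352911 had a signal of 47.1 and rank 5341, with the summit 105 bp upstream. It ranked 6043 in replicate 1 and 12465 in replicate 2, and its replicate summits lay 73 and 92 bp from the pooled one.

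**Figure D2:**
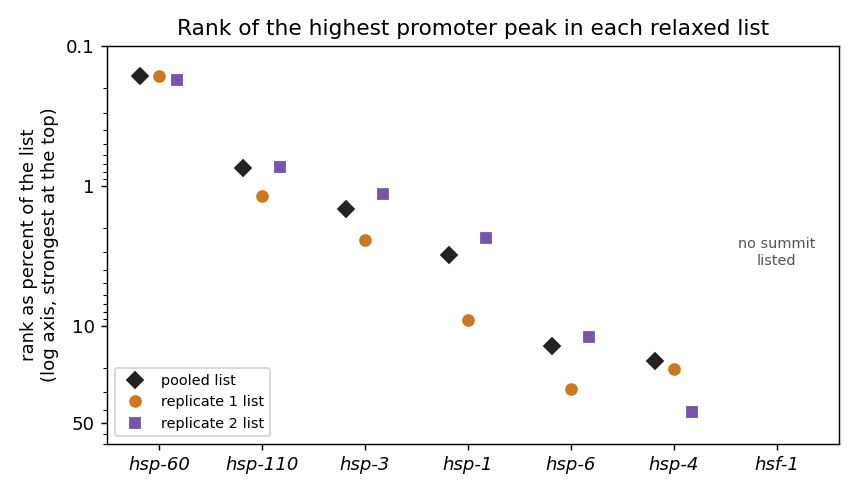
The vertical log axis gives the rank of each gene's highest promoter peak as a percentage of its list, with the strongest at the top, for the pooled list and for each replicate. The 3 symbols of hsp-60 nearly coincide, hsp-110, hsp-3, hsp-1 and hsp-6 rank higher in replicate 2 than in replicate 1, and hsp-4 ranks higher in replicate 1.

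By compartment, both cytosolic genes, 1 of the 2 endoplasmic reticulum genes and 1 of the 2 mitochondrial genes had a thresholded promoter summit. The members of a compartment were not alike. The signals of the pooled list were 405 and 183 in the cytosol, 283 and 47.1 in the endoplasmic reticulum, and 949 and 57.9 in the mitochondria. The pairs overlap in this order, so compartment did not separate the 6 chaperone genes, and pairs of genes allow no test.

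Partner summits within 100 bp in both replicates were found for 4 of the 5 thresholded promoter summits, and for 78.1% of all thresholded nuclear peaks. Another protein-coding gene's window held 3 of the 5 (those shared with Y22D7AL.10, rpn-3 and C15H9.5), where 26.9% of the 1645 thresholded summits in any promoter window lay in the windows of several genes. Stretches of 36 bases occurred once in the genome for 94.9% of those in the window of hsp-4, 97.5% in that of hsp-1 and 99.9 to 100% in the others, so most reads of such length could be placed. Read length was not known.

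Heat shock elements were examined because HSF-1 acts through them. At the summit of hsp-110, GAANNTTC and TTCNNGAA overlapped to give an element of 3 alternating units, centred 17 bp from the summit. An element of 3 such units was looked for after this match was seen, and 0.620% of thresholded summits and 1.01% of promoter stretches of 151 bp held one. At hsp-1 the 2-unit motif GAANNTTC lay 11 bp from the summit, and at hsp-4 TTCNNGAA lay 63 bp from it. GAANNTTC occurred around 6.15% of thresholded summits and in 9.56% of promoter stretches, and TTCNNGAA in 6.85% and 9.33%. The promoter stretches were taken from 225 to 75 bp upstream of each protein-coding 5′ end.

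Over the whole promoter windows, elements of 3 units were present at 4 of the 7 genes (hsp-1, hsp-110, hsp-6 and hsp-60) and in 7.68% of all protein-coding genes. hsp-1 held one 138 bp upstream and another 897 bp upstream, 224 and 535 bp from its summit. hsp-110 held one at its summit, 231 bp upstream, and another 109 bp upstream. That of hsp-6 was 301 bp upstream and 85 bp from the pooled summit, and that of hsp-60 was 691 bp upstream and 95 bp from the summit. Close placement on a summit was thus seen at hsp-110, and the other elements lay 85 bp or more from the nearest pooled summit. The elements of hsp-6 and hsp-60 were nevertheless centred within the bounds of the pooled promoter peaks given above. Those of hsp-1 and the second one of hsp-110 were centred outside them.

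The other motifs marked different genes. TGACGTG, the unfolded protein response element, lay 25 bp from the relaxed summit of hsp-4, and it occurred around 2.53% of thresholded summits and in 1.55% of promoter stretches. CCAAT occurred at hsp-60 in 2 copies, 14 and 16 bp to either side of the summit, at hsp-3 3 bp from the summit and at hsp-6 59 bp from it, where 25.1% of summits and 25.7% of promoter stretches held it. CTGCGTCTC lay 14 bp from the summit of hsp-3 and occurred around 6.74% of summits and in 1.80% of promoter stretches. GAGAGA occurred at hsp-1, with 26.8% of summits and 12.05% of promoter stretches. AGGTCA (5.71% of summits, 4.42% of promoter stretches) and CAAAGTCCA (0.233% and 0.125%) matched at none of the 6. A match is a string of letters in the window and was not measured as a site.

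Base composition also differed among the summits. In the 151 bases around the summit, GC content was 63.6% at hsp-3, 57.0% at hsp-60, 52.3% at hsp-6, 40.4% at hsp-1 and hsp-4, and 37.7% at hsp-110, against 43.2% ± 7.06 (SD) over all thresholded nuclear summits. A GC content as high as that of hsp-3 was found at 0.465% of thresholded summits, and one as high as that of hsp-60 at 3.20%. GC content can affect how ChIP-seq fragments are amplified. Its part in these signals was not tested.

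Summits were not limited to promoters. Thresholded summits stood just past the 3′ end of 4 of the 7 genes, hsp-1, hsp-110, hsp-3 and hsp-6, counted from 200 bp before to 500 bp after it, where 4.65% of all protein-coding genes and 15.3% of the 2010 genes with a thresholded promoter summit had one. This place was examined after the summits were seen. The summit of hsp-3 lay 166 bp past its 3′ end with a signal of 153 and rank 1243. That of hsp-1 lay 101 bp past the end, with a signal of 134 and rank 1509, in a stretch of 124 bp between the converging genes hsp-1 and nra-1. Neither lay in the promoter window of any protein-coding gene.

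The 3′ summits of the other genes stood in the promoter windows of the next gene on the same strand. At hsp-110 the summit, 130 bp past the end with a signal of 114.7 and rank 1848, was 173 bp upstream of ufbp-1. At hsp-6 a pair of summits lay 131 and 336 bp past the end, with signals of 63.4 and 82.3, and 570 and 365 bp upstream of adss-1, the gene of adenylosuccinate synthetase. The summits of hsp-1, hsp-110 and hsp-3 had partners in both replicates within 29 bp. Those of hsp-6 had them only in replicate 1, where the nearest summits of replicate 2 were 196 bp or more away.

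Within gene bodies, hsp-3 had thresholded summits 1807 and 2629 bp downstream of its 5′ end, with signals of 89.6 and 66.1, and hsp-60 had one 3517 bp downstream with a signal of 63.4, near the bottom of the thresholded list. hsp-3 thus carried 5 thresholded summits in the gene and its flanks, from the start of the promoter window to 500 bp past the 3′ end. As many or more were found at 53 genes, 0.265% of all. The count depends on gene length, which was 3097 bp for hsp-3. Of the 5, those 578 bp upstream and 2629 bp downstream had no replicate 1 summit within 100 bp. The one at 2629 bp, at rank 3531 of 3889, also stood near the bottom of the thresholded list. hsp-4 had no thresholded summit anywhere in this stretch, and the strongest of its 4 pooled summits was that of its promoter.

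**Figure D3:**
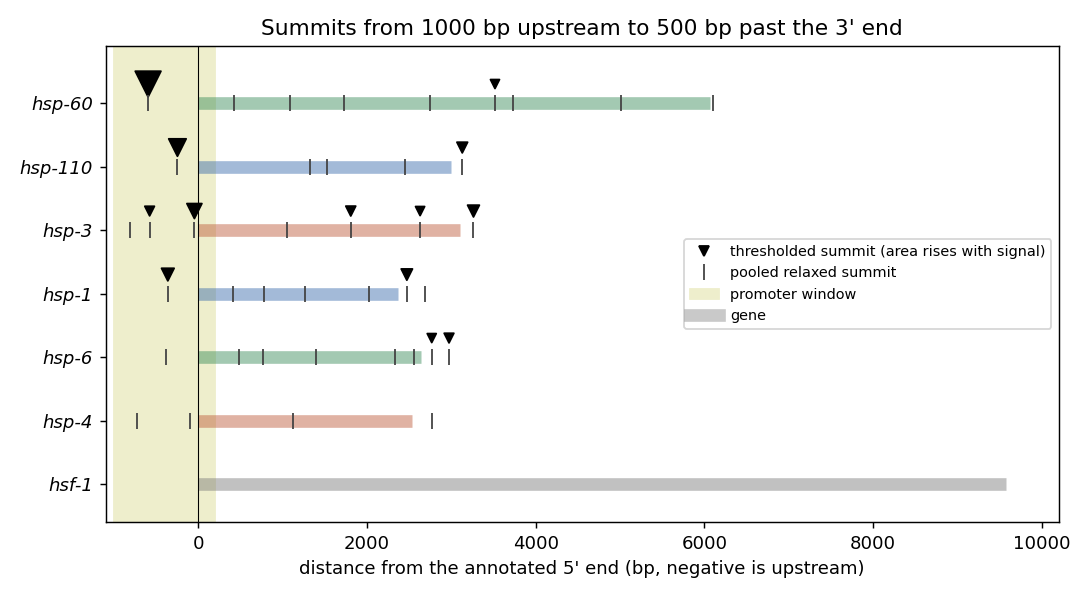
Each row shows 1 gene from its annotated 5′ end at 0, with distance in bp on the horizontal axis, pooled relaxed summits as ticks and thresholded summits as triangles whose area rises with signal. The large triangles lie in the shaded promoter windows of hsp-60 and hsp-110, hsp-3 carries 5 triangles, and the row of hsp-1 has triangles upstream of the gene and just past its end.

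hsf-1 (WBGene00002004, I:11953507-11963085, minus strand, 9579 bp) encodes the transcription factor that drives the cytosolic heat shock response. The files used here listed no summit in its promoter window or within the gene, in the thresholded, the pooled or either replicate's list. From its 5′ end, the next pooled summit lay 15785 bp upstream and 21606 bp in the direction of the gene, which leaves 37391 bp without a listed summit. A gap as long was found between 1.46% of neighbouring pooled summits. In replicate 1 the gap was 34471 bp (0.987% of gaps as long) and in replicate 2 it was 38492 bp (1.16%). Between thresholded summits a gap as long as the 44562 bp around hsf-1 was common, at 17.3%. These shares count gaps and not bases, and a given gene falls in a long gap more often than in a short one. They therefore do not say how unusual the position of hsf-1 is, and the part of the genome in such gaps was not measured. The relaxed lists end at a minimum signal, so a missing summit says only that none was listed.

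The wider chaperone network was described with 61 named genes in 4 lists, which were also chosen with earlier results of these data known. Of the 61 genes, 24 (39.3%) had a thresholded promoter summit, beside the 10.1% of all genes. Of 15 genes of cytosolic folding and HSF-1 regulation, 6 (40%) had one and 10 (66.7%) had a pooled one, beside 34.8% of all genes. Of the 6, F44E5.4 and F44E5.5, which encode HSP70 proteins, were counted on the same summit, with a signal of 105.7. The highest were bag-1, a nucleotide exchange factor of HSP70, with a signal of 485, ahsa-1, an activator of the HSP90 ATPase, with 459, and unc-23, another BAG domain protein, with 296. By contrast hsp-90, the partner of ahsa-1, had no listed promoter summit in any list. Among the HSF-1 inhibitors of C. elegans, hsb-1 had a pooled promoter summit with a signal of 14.9 and 1 in replicate 1, ddl-1 had 1 in replicate 1 alone, and ddl-2 had none in any list. F44E5.4, F44E5.5, hsp-90, hsb-1, ddl-1 and ddl-2 were named after their values were seen.

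Of the 14 small heat shock protein genes, which encode ATP-independent holdases, 2 (14.3%) had a thresholded summit, beside 10.1% of all genes. These were sip-1 with a signal of 130 and hsp-43 with 95.6. A pooled summit was found at 4 (28.6%), beside 34.8% of all genes. Of 16 genes of the endoplasmic reticulum, 10 (62.5%) had a thresholded summit, beside 10.1% of all genes, and 15 (93.8%) had a pooled one, beside 34.8%. The highest were the protein disulfide isomerase genes pdi-3, with a signal of 328, pdi-6 with 221 and pdi-1 with 149. All 4 regulators of the unfolded protein response on the list, named after their values were seen, had a thresholded summit, with signals of 144 at atf-6, 104 at ire-1, 94.4 at xbp-1 and 62.4 at pek-1. Those signals were below that of hsp-3. Like any thresholded signal, they had to be above that of hsp-4, which had no thresholded summit.

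Of 16 mitochondrial genes, 6 (37.5%) had a thresholded summit, beside 10.1% of all genes, and 14 (87.5%) had a pooled one, beside 34.8%. The highest were Y22D7AL.10 with the summit it shares with hsp-60, tomm-20, which encodes an import receptor, with a signal of 426, and C34C12.8, annotated as the GrpE homologue that exchanges nucleotide on mitochondrial HSP70, with 386. The mitochondrial HSP70 gene hsp-6 had its pooled signal of 57.9, which is under the lowest thresholded signal of 61.4 and so below every thresholded gene of the list. Of the regulators of the mitochondrial response, named after their values were seen, atfs-1 had a thresholded signal of 117, ubl-5 had one of 179, dve-1 had a pooled signal of 26.8 and no thresholded summit, and haf-1 had a pooled signal of 11.1 and no summit in either replicate.

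**Figure D4:**
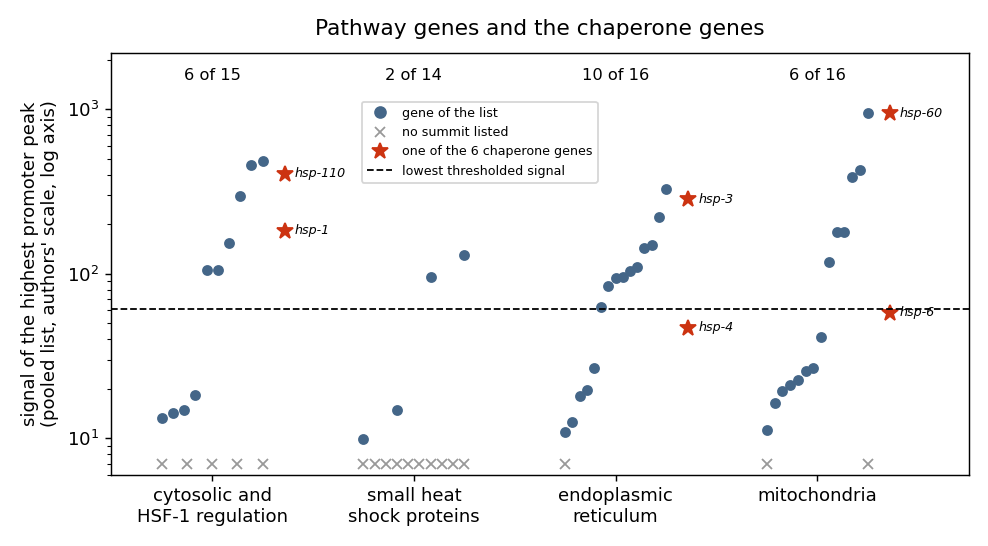
Points give the signal of the highest promoter peak of each pathway gene in the pooled list on a log axis, on the authors' scale. Crosses mark genes with no promoter summit in the pooled list, some of which had one in a replicate's list. Stars mark the 6 chaperone genes and the dashed line is the lowest thresholded signal. The number above each list counts thresholded genes, from 2 of 14 small heat shock proteins to 10 of 16 endoplasmic reticulum genes.

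By signal, the neighbours of the 4 genes with a thresholded promoter summit were mixed. hsp-60 stood between nhr-68, a nuclear receptor gene with a signal of 1036, and cux-7 with 931. hsp-110 stood between mans-3 with 413 and F02E9.5 with 405. hsp-3 stood between nspe-8 with 284 and mig-38 with 282. hsp-1 stood between R10D12.13 with 182.9 and lin-14, a developmental timing gene, with 182.5. The peaks of nhr-68, cux-7 and R10D12.13 were shared with other genes' windows, so they cannot be assigned to 1 gene.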

How the data were processed

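The data are peak lists on the ce11 build (WBcel235) that the authors deposited, with 1 relaxed list per replicate, 1 from pooled reads and 1 thresholded list. Signal values are as the authors deposited them, on a scale that belongs to each list, and they were used only within a list. The −log10 q column deposited by the authors stood at its ceiling of 2.69 in all 3889 thresholded peaks and was not used to rank them. Which aligner and peak caller were run is not given in these sources, and read depth is unknown. No interval was therefore put on a signal. Lists on ce10 were not used.

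Summits were assigned to genes of Ensembl release 115 with Python 3.11.15, pandas 2.3.3, numpy 2.4.6 and scipy 1.17.1, after the code was tested on simulated data. Coordinates are counted from 1. The genes named are the 7 genes, every gene whose promoter window holds one of their thresholded summits, up to 3 genes with the highest thresholded promoter peak in each of 4 pathway lists, and the genes ranked just above and below the 4 genes with thresholded promoter summits. Other genes named, which are neighbours of the 7 genes (nra-1 and C37H5.5) and pathway genes that the report says were named after their values were seen, fall outside this rule. Genes, lists and motifs were chosen with earlier results of these data known. In the pathway lists, hsp-16.11 and hsp-16.49 were matched by WormBase identifier, and hsf-2, annotated as a pseudogene, and trap-1, annotated as a translocon-associated protein, were left out. No test was run, since both replicates belong to 1 group. The closing section gives the effect of other windows, assignments, thresholds and replicates.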

Additional observations from a re-analysis of the deposited data

How the results depend on the processing

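Signals have no depth behind them, so weak peaks near the threshold, such as that of hsp-6, cannot be placed firmly on either side of it. Of the 7 genes, 2 (hsp-1 and hsp-3) had a thresholded summit when each summit went to its nearest 5′ end, since those of hsp-60 and hsp-110 lie nearer to the divergent neighbour. With the highest peaks of 1 replicate alone, 4 to 5 genes had one, and hsp-6 was the addition, in replicate 2. The share of all genes was 7.69% with a window of 500 bp upstream and 100 bp downstream, 13.7% with 2000 and 500 bp, 10.84% by nearest 5′ end, 10.9% with any transcript's 5′ end, 10.7% with any base of the peak, 5.85% with the peaks of the upper part of the list by signal, and 9.52% to 9.81% with 1 replicate left out. The window of 500 and 100 bp left 3 of the thresholded summits, without that of hsp-60, and 1 of these was shared with another gene. The following alternatives were chosen after seeing the data. Outside promoter windows, 2 genes had a 3′ end summit, where 2.64% of all genes and 9.35% of those with a thresholded promoter summit had one. By nearest 5′ end, 4 of the 15 cytosolic genes had a thresholded summit. Of 36 alternatives for the pathway lists, 31 stayed within 1.5 times. The small heat shock proteins fell to 1 gene with the short window and with the upper part of the list, and gave 1 to 2 without a replicate. The endoplasmic reticulum list fell to 4 with the upper part and gave 6 to 8 without a replicate. Around the 6 summits, 10 pairs of motif and summit became 17 at 150 bp to each side, a setting planned with the others. No paired analysis was possible because there is 1 group.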
